A study of Mus musculus with 6 samples.

Results

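Transcripts of 10 genes of the spermatogonial stem cell and of its growth factor GDNF were compared in whole testes of wild-type (Wt) and Dazap1 mutant (Fn) mice at postnatal day 21 (P21). The genes were Gdnf, Gfra1, Ret, Etv5, Bcl6b, Id4, Zbtb16, Foxo1, Sall4 and Lin28a, taken by exact gene symbol, and they were read by 24 of the 45037 probe sets of the Affymetrix mouse array. There were 3 Wt and 3 Fn samples, each on its own array, and both genotypes were on a mixed C57BL/6 and 129 background. Fn mice were homozygous for the Dazap1 floxed with neo allele, which makes an aberrant protein with an insertion between its RNA-binding domains, and most such homozygotes die around birth, so the samples come from survivors, which are growth retarded. DAZAP1 is an RNA-binding protein of the hnRNP class. The values are MAS5 signals, which are linear intensities. The labels call the samples biological replicates. Each limma p-value weighs how far those samples vary among themselves together with the spread of probe sets of similar signal.

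Spermatogonial stem cells are the germ cells from which spermatogenesis starts, and they keep their number by dividing into more of themselves. Sertoli cells and peritubular myoid cells of the tubule secrete GDNF, which binds the co-receptor GFRA1 on undifferentiated spermatogonia and signals into the cell through the receptor tyrosine kinase RET. Etv5 and Bcl6b encode transcription factors whose genes are switched on by GDNF in cultured stem cells, and ID4, ZBTB16 (also called PLZF), FOXO1, SALL4 and LIN28A are regulators found in undifferentiated spermatogonia, some of them also in other testis cells.

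Most of these genes had higher signals in Fn than in Wt testes, Gdnf by the widest margin by brightest probe set, while Id4 was lower and Bcl6b was near its Wt level. Represented by their brightest probe sets, 7 genes rose (Gdnf, Ret, Foxo1, Lin28a, Gfra1, Sall4 and Zbtb16), 1 fell (Id4) and 2 did not pass the test (Etv5 and Bcl6b) at a limma adjusted p below 0.05. Over all 13447 genes tested, 44.9% rose and 24.7% fell. The median log2 change, Fn minus Wt, was 0.87 over the 10 genes and 0.32 over all genes, so a typical gene also had a higher signal in Fn testes on the deposited scale. Relative to that median, the same 7 genes were higher and Id4 was lower, against 25.8% and 33.9% of all genes. Only Gdnf and Foxo1 of the 7 kept that relative call under every setting in which it was recomputed. The 7 became 2 (Gdnf and Foxo1) without Wt replicate 3 or without Fn replicate 1, 3 without Wt replicate 2 or without Fn replicate 3, and 4 after quantile normalization. RNA of a whole testis does not tell a change in the number of cells of a type from a change in RNA per cell.

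All 24 probe sets were accounted for. The test covered 22 of them, those whose mean log2 signal reached the 40th percentile, which is a signal of 48.0, and 15 of these rose and 3 fell, where 41.8% and 20.2% of all probe sets tested did. Of the 22, 3 passed this filter only through the Fn arrays, since their Wt geometric means were under it (Gdnf and the dimmer probe set each of Gfra1 and Ret named below), so the count of those tested carries no weight of its own. With no filter, 12 of all 24 rose, 4 fell and 8 did not pass, beside 23.9% and 12.9% of all probe sets. In 15 probe sets every Fn signal was above every Wt signal, in 4 every Fn signal was below, and 5 overlapped, where 32.4% of all probe sets on the array lay wholly above and 16% wholly below. Of the 22 tested, 15 lay above and 3 below, beside 46.6% and 22.1% of all tested, and by brightest probe set 7 genes lay above and 1 below, beside 48.9% and 26.6% of all genes. Relative to the median of all genes 12 probe sets were higher (22.5% of all probe sets tested were, and 28.7% were lower). The 12 became 6 without Wt replicate 3, 8 without Wt replicate 2 and 7 without Fn replicate 1 or Fn replicate 3. On the deposited scale 12 to 16 were higher without 1 array, so the relative calls changed more. Their sizes could still be stable, as the relative change of Gfra1 1439015_at was 0.52 to 0.60 and that of Foxo1 1416981_at 0.58 to 0.71 without 1 array.

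**Figure D1:**
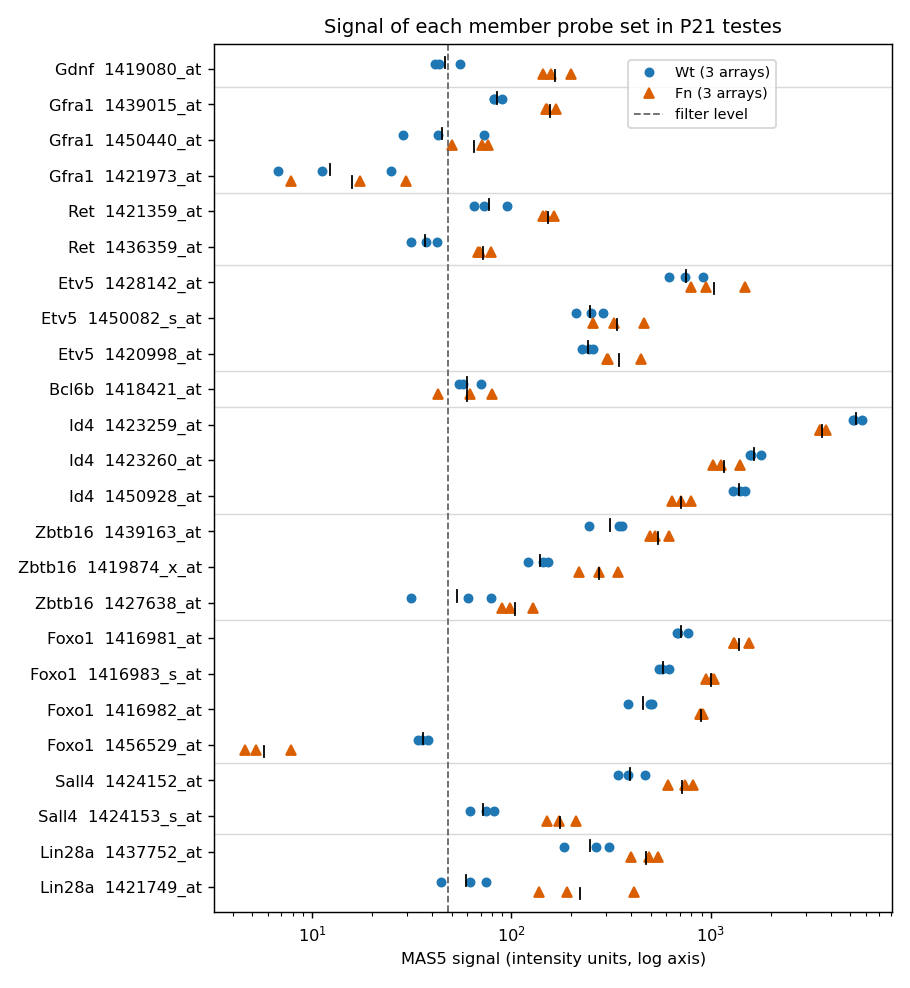
Signal (log axis, MAS5 units) of the 24 probe sets of the 10 genes on the 3 Wt (circles) and 3 Fn (triangles) arrays. Short bars mark geometric means and a dashed line marks the filter level, 48.0. The genotypes overlap in 5 of the 24 probe sets, and all 3 Id4 probe sets lie lower in Fn testes.

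The ligand had the largest change by brightest probe set. Gdnf, at chr15:7810048-7837580 of mouse assembly GRCm38.p6, was read by 1 probe set (1419080_at), with signals of 43.4, 41.3 and 55.1 in Wt and 157.1, 143.6 and 199.0 in Fn testes. The lowest Fn signal was well over the highest Wt signal, and the groups did not overlap. The log2 change was 1.84 (limma adjusted p = 0.000197, standard error 0.25), and since the Wt mean was just under the filter level the rise is given as at least 3.44-fold against that level. The adjusted p ran up to 0.0015 over 15 alternative settings. This probe set passed the filter only through its Fn arrays, and with no filter its adjusted p was 0.00054 from limma. By brightest probe set, Gdnf was the only 1 of the 10 genes higher by more than 2-fold, as 11.8% of all genes were.

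Genes of the cells that secrete GDNF were also higher. Of 17 Sertoli cell genes tested 16 rose and 0 fell (0 also at an unadjusted p under 0.05 from limma), with a median log2 change of 0.73, and their summed signal was 77745 to 88366 in Wt and 120806 to 125872 in Fn arrays. None of the 17 measured was under the filter level in both genotypes. Of 10 peritubular myoid cell genes 8 rose and 0 fell (9 and 0 at an unadjusted p under 0.05), with a median of 0.81 and sums of 16154 to 18777 and 28426 to 29980. Among all genes tested 44.9% rose and 24.7% fell, with a median of 0.32. Set against that median, 11 of the 17 Sertoli and 7 of the 10 myoid genes were higher and 0 lower, beside 25.8% and 33.9%. The Sertoli sums rest mostly on Clu, Ctsl, Cst12 and Amhr2. None of them passed relative to that median (adjusted p = 0.20, 0.68, 0.14 and 0.082 from limma). The smallest p were those of Inhbb (log2 change 1.03), an inhibin subunit gene, in the Sertoli list and Cald1 (1.12), the caldesmon gene of contractile cells, in the myoid list. The part of either cell type in the rise of Gdnf was not tested.

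Both receptor genes rose, by a little under 2-fold at their brightest probe sets. Gfra1, the GDNF co-receptor gene at chr19:58235581-58455946, was read most brightly by 1439015_at, with signals of 81.7, 89.8 and 81.9 in Wt and 148.8, 166.8 and 150.8 in Fn testes. Replicates of this probe set were tight, the groups lay apart, and the log2 change was 0.88 (limma adjusted p = 0.0033, standard error 0.20). Relative to the median of all genes it was 0.56 (adjusted p = 0.038), and 0.053 when replicates were blocked and 0.056 to 0.096 when any single array was left out. The other Gfra1 probe sets, which share a source sequence with each other and not with the first, were dim and their groups overlapped. Of these, 1450440_at had signals of 28.7, 42.7 and 72.8 in Wt and 76.2, 71.3 and 50.3 in Fn testes (adjusted p = 0.26 from limma), and 1421973_at, from 6.7 to 29.4 over the 6 arrays, was under the filter.

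Ret, the receptor tyrosine kinase gene at chr6:118151748-118197744, had signals of 95.2, 65.1 and 72.8 in Wt and 164.1, 143.4 and 148.5 in Fn testes by 1421359_at. The groups did not overlap, and the log2 change was 0.98 (limma adjusted p = 0.0040, standard error 0.23). Its dimmer probe set, 1436359_at, had signals of 42.4, 31.3 and 37.3 in Wt and 78.7, 67.6 and 69.4 in Fn testes. The groups did not overlap, the Wt mean was under the filter level, and the rise was at least 1.49-fold against that level. The adjusted p was 0.020 from limma, or 0.053 without Wt replicate 2 and 0.057 with no filter, and 0.053 and 0.052 after quantile normalization and median centring.

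Promoter windows were available here for 6 of the 10 genes, 8 windows in all. The 250 bases before each RefSeq start were searched on both strands. The letters sought are known to be recognised by ETV5 and its ETS relatives (CCGGAA), FOXO factors (GTAAACA) and factors of the basic helix-loop-helix class (CAGGTG). The windows of Gfra1 and of the first Etv5 start are shown because they alone held any of these letters, in capitals here, and the motifs do not overlap. Gfra1 is at chr19:58455399-58455648 and Etv5 at chr16:22439571-22439820, both on the minus strand of GRCm38.p6 and written 5′ to 3′.
Gfra1: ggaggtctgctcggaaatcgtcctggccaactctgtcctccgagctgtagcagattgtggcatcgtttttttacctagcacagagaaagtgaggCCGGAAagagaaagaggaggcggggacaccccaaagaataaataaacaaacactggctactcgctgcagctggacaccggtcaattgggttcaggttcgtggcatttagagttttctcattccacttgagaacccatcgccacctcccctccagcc
Etv5: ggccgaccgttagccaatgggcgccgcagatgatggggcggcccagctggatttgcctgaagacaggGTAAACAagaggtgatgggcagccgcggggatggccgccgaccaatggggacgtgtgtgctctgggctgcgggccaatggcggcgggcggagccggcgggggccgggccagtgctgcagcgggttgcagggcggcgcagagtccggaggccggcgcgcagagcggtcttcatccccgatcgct
The ETS letters began 156 bases before the Gfra1 start and the FOXO letters 183 bases before the Etv5 start. Of 32817 windows of the same length, 12.0% held CCGGAA, 3.16% held GTAAACA and 17.2% held CAGGTG, which was in 0 of the 8 windows.

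Of the transcription factor genes that GDNF switches on, neither Etv5 nor Bcl6b passed the test by brightest probe set. Etv5, an ETS factor gene at chr16:22381313-22439570, was read by 3 probe sets. The brightest, 1428142_at, had signals of 744.0, 621.4 and 916.4 in Wt and 945.5, 793.5 and 1491 in Fn testes (log2 change 0.47 with a standard error of 0.23, limma adjusted p = 0.098), and the groups overlapped. The signals of 1450082_s_at were 211.0, 250.7 and 288.1 in Wt and 328.6, 257.2 and 463.4 in Fn testes (log2 change 0.45, adjusted p = 0.10). Only 1420998_at passed the test, with 246.4, 226.2 and 256.8 in Wt and 305.2, 301.8 and 447.8 in Fn testes (log2 change 0.51, adjusted p = 0.033), and without overlap. The last 2 named share a source sequence. In all 3 probe sets the highest array of either genotype was replicate 3. Blocking on the replicate number, the adjusted p values of the 3 were 0.0078, 0.046 and 0.020, while 1420998_at had 0.12 without Fn replicate 3, 0.067 to 0.090 without Wt replicate 1 or Wt replicate 2, 0.053 without Wt replicate 3, 0.11 after quantile normalization, 0.19 with median centring, 0.096 with 75th percentile centring and 0.052 with no filter. Against the all-gene median, the changes were 0.13 to 0.19 and none of the 3 passed (adjusted p from 0.42 to 0.66 from limma).

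Bcl6b, a BTB and zinc finger repressor gene at chr11:70224127-70229798, had signals of 57.0, 54.3 and 70 in Wt and 62.2, 80.1 and 42.7 in Fn testes. The Fn arrays spread to both sides of the Wt arrays, and the log2 change was -0.01 with a 95% interval of -0.74 to 0.72 (adjusted p = 0.98 from limma). At this low signal a rise of the size seen for Gfra1 was outside the interval, but one of the size seen for Etv5 was not.

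Id4 went against the other genes. It encodes an inhibitor of basic helix-loop-helix transcription factors that among spermatogonia marks the stem cell fraction. Id4 lies at chr13:48261116-48266028 and was the brightest of the 10. Which cells of the testis gave its signal was not tested. Its signals by 1423259_at were 5196, 5275 and 5729 in Wt and 3547, 3808 and 3522 in Fn testes. The second probe set, 1423260_at, gave 1579, 1592 and 1794 in Wt and 1027, 1397 and 1122 in Fn testes, and the third, 1450928_at, gave 1288, 1480 and 1405 in Wt and 708.9, 794.3 and 641.5 in Fn testes. No Fn signal reached the lowest Wt signal in any of the 3. Id4 fell by 0.57 (limma adjusted p = 0.000162, standard error 0.076), by 0.50 (adjusted p = 0.0074) and by 0.96 (adjusted p = 9.69e-05) on the log2 scale. All 3 probe sets carry the same source sequence, so they are not independent readings. Against the all-gene median the changes were -0.90, -0.82 and -1.29, and on the deposited scale each kept its call under all 15 alternative settings, with adjusted p values of at most 0.035.

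**Figure D2:**
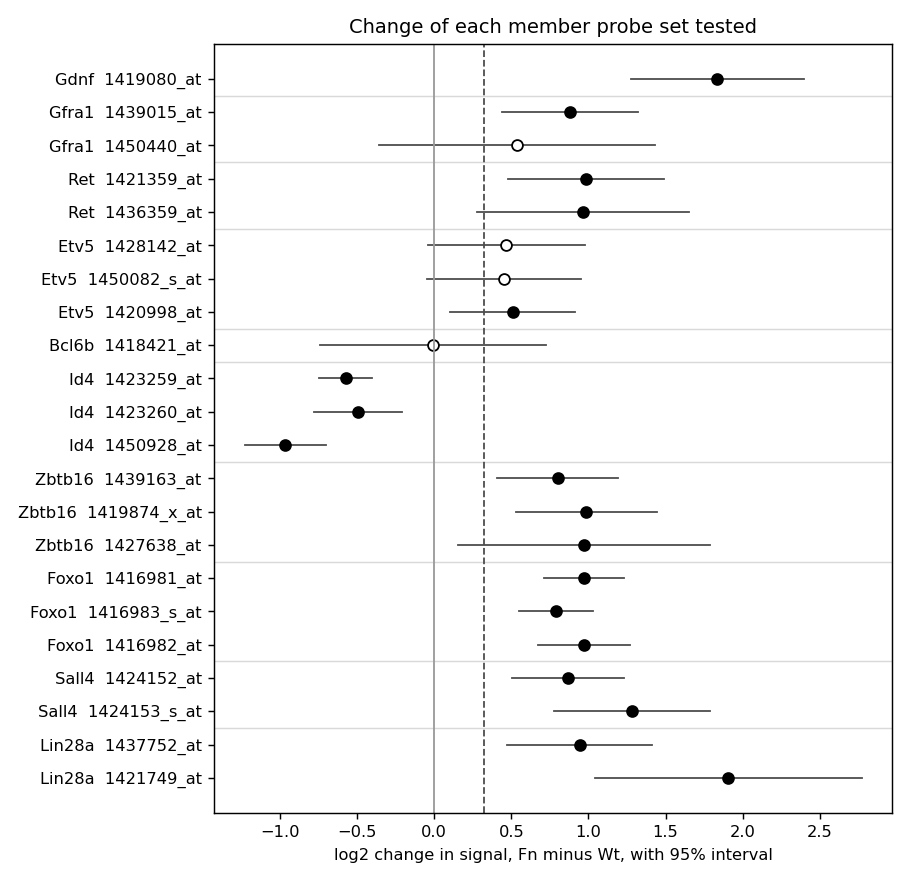
Fn minus Wt log2 signal of each of the 22 probe sets tested, with 95% intervals from limma. Filled points passed an adjusted p under 0.05, open points did not, grey marks 0 and dashes mark the all-gene median, 0.32. The changes run from -0.96 for an Id4 probe set to 1.91 for a Lin28a probe set.

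The remaining 4 genes, which encode nuclear regulators and an RNA-binding protein, rose. Zbtb16, a zinc finger repressor gene needed for stem cell maintenance, lies at chr9:48651797-48836225 and had signals of 346.8, 359.0 and 245.6 in Wt and 620.0, 495.8 and 524.6 in Fn testes by 1439163_at (log2 change 0.80 with a standard error of 0.17, limma adjusted p = 0.0030). The signals of 1419874_x_at, a kind of probe set that can bind other transcripts too, were 152.4, 144.6 and 121.3 in Wt and 218.5, 275.4 and 344.5 in Fn testes (log2 change 0.99, adjusted p = 0.0023). The dimmest, 1427638_at, went from 78.8, 31.2 and 60.8 to 89.6, 127.9 and 98.4 (log2 change 0.97, adjusted p = 0.041). In none of the 3 did the groups overlap. The call of the dimmest was lost under the replicate block (adjusted p = 0.052), under each of the scalings tried (0.068 to 0.075) and when any array except Wt replicate 1 was left out (0.0610 to 0.12).

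Foxo1 encodes a forkhead factor that moves between the nucleus and cytoplasm of spermatogonia and lies at chr3:52268337-52350109. Its brightest probe set, 1416981_at, had signals of 679.5, 770.9 and 685.3 in Wt and 1314, 1313 and 1566 in Fn testes, a log2 difference of 0.97 (limma adjusted p = 8.73e-05, standard error 0.12). The 2 others of the same source sequence also rose, 1416982_at with 0.97 and 1416983_s_at with 0.79 on the log2 scale (adjusted p = 0.000197 and 0.000198). The fourth, 1456529_at, from a different source sequence, had low signals of 35.7, 34 and 38.2 in Wt and 5.2, 4.6 and 7.8 in Fn testes. Both groups were under the filter level, so no fold is given, although the groups lay wholly apart in the opposite direction to the other probe sets. With no filter it had an adjusted p of 0.0066. Its place in the gene was not analysed here.

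Sall4, a zinc finger factor gene at chr2:168748332-168767201, had signals of 467.5, 383.7 and 341.3 in Wt and 820.2, 608.0 and 744.6 in Fn testes by 1424152_at (log2 change 0.87 with a standard error of 0.16, limma adjusted p = 0.0012). By 1424153_s_at it had 62.1, 81.7 and 74.2 in Wt and 210.0, 150.0 and 172.5 in Fn testes, a log2 difference of 1.28 (adjusted p = 0.00086), and both probe sets share a source sequence. Lin28a, whose product blocks the maturation of let-7 microRNAs, lies at chr4:134003330-134019196 and had 309.8, 265.5 and 183.0 in Wt and 546.8, 397.0 and 492.1 in Fn testes by 1437752_at (log2 change 0.94, standard error 0.21, adjusted p = 0.0034). Its dimmer probe set, 1421749_at, had 44.5, 61.8 and 74.5 in Wt and 137.3, 411.8 and 190.7 in Fn testes. The groups of all 4 probe sets were apart, but the last was widely spread among Fn arrays, and its log2 change of 1.91 (standard error 0.39, adjusted p = 0.0020) was 1.46 without Fn replicate 2.

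By their brightest probe sets the log2 changes of Ret, Foxo1, Lin28a, Gfra1, Sall4 and Zbtb16 ran from 0.80 to 0.98, and each lay within the 95% intervals of the others. Their changes were set against those of 18 other genes of undifferentiated spermatogonia that were tested. Of these 14 rose and 0 fell (0 also at an unadjusted p under 0.05 from limma), or 9 without Wt replicate 3, with a median of 0.92. Among all genes tested 44.9% rose and 24.7% fell. Of the 18, 6 passed the filter only through the Fn arrays and 5 of the 14 that rose were among them, so this count is no measure of the list, and 11 rose with no filter. Of the other 12, 9 rose with a median of 0.78, and the list's summed signal was 6297 to 7627 in Wt and 11986 to 13345 in Fn arrays. They included Adgra3 (log2 change 1.09), Taf4b (0.94) and the integrin gene Itga6 (1.20), while Utf1 had -0.09 and did not pass. Of the 20 measured, Pax7 and Lin28b were under the filter level in both genotypes.

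Within each array, the log2 signal of each gene less the mean log2 signal of those 12 genes is given as a description, with no test. The difference between genotypes in this quantity was 0.14 for Gfra1, 0.24 for Ret, 0.06 for Zbtb16, 0.12 for Sall4 and 0.20 for Lin28a, and the arrays of both genotypes overlapped for each. For Foxo1 it was 0.23, with the Fn arrays above the Wt arrays, but 0.10 with overlap against all 18 genes. For Etv5 it was -0.28, and the arrays overlapped, but the differences in same-numbered pairs were -0.38, -0.27 and -0.18, and -0.44, -0.41 and -0.36 against all 18 genes. Etv5 was lower relative to these genes in every same-numbered pair, but no source states that same-numbered samples were paired. For Id4 the quantity went from 4.15 ± 0.17 to 2.83 ± 0.08, and for Bcl6b from -2.34 ± 0.30 to -3.09 ± 0.48 (SD, n = 3 each). The Fn arrays lay wholly below the Wt arrays in both.

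**Figure D3:**
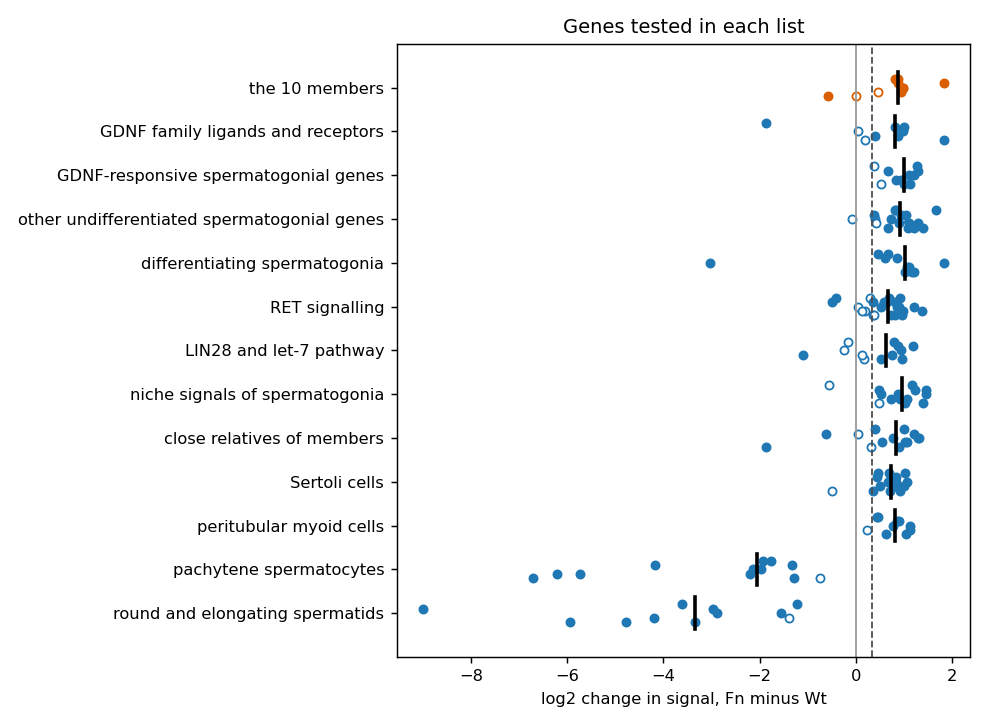
Fn minus Wt log2 signal of every gene tested, by brightest probe set, in the 10 genes (orange) and in 12 lists of related genes and cell types (blue). Points are filled where the limma adjusted p was under 0.05, black bars show each median, grey marks 0 and dashes mark the all-gene median, 0.32. The medians run from 1.02 in the list of differentiating spermatogonia to -3.35 in round and elongating spermatids, with 0.87 in the 10 genes. The 1.02 is the change of Kitl, a gene in that list whose product is made by Sertoli cells.

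Other genes of the GDNF family did not all move the same way. Among 9 ligands, receptors and co-receptors of the GDNF family that were tested, Gdnf, Gfra1 and Ret included, 6 rose and 1, Gfra4, fell. Over all genes tested, 44.9% rose and 24.7% fell. Relative to the median of all genes 4 were higher (Gdnf, Gfra1, Ret and Sdc3) and 1 lower, beside 25.8% and 33.9% of all genes. Gdnf and Gfra3 passed the filter only through the Fn arrays, and of the other 7 genes 4 rose. Sdc3, which encodes a syndecan that binds GDNF, had a log2 difference of 0.81 (adjusted p = 0.0033 from limma). Nrtn, the gene of the related ligand neurturin, had 0.40 (adjusted p = 0.047), but 0.08 relative to the median of all genes (adjusted p = 0.71). Ncam1, another GDNF receptor gene, had 0.18 and did not pass (adjusted p = 0.57). Artn, the gene of the ligand artemin, had signals of 156.5, 210.7 and 147.8 in Wt and 8.1, 8.4 and 14.6 in Fn testes, a drop of at least 3.53-fold measured against the filter. It was not tested because its mean over the 6 arrays was under that level.

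Downstream of RET, 24 genes of the adaptors, kinases and RAS pathway were tested, of which 17 rose, 2 fell and 5 did not pass, with a median log2 change of 0.67. Among all genes tested 44.9% rose and 24.7% fell. The kinase gene Fyn rose by 0.97 (adjusted p = 4.41e-05 from limma), the adaptor gene Grb2 by 0.95, the exchange factor gene Sos1 by 0.97, the phosphatase gene Ptpn11 by 0.91 and Pik3r1, a regulatory subunit of PI3-kinase, by 1.21. Map2k1 rose by 0.85 whereas Map2k2, which encodes the related kinase, fell by 0.49 (adjusted p = 0.0031), and Nras fell by 0.41 (adjusted p = 0.0058). These genes are expressed in most cells. Relative to the median of all genes 10 were higher and 3 lower, beside 25.8% and 33.9% of all genes. Of 11 genes that respond to GDNF in spermatogonia, 9 rose and 0 fell (0 also at an unadjusted p under 0.05), with a median of 0.99. They included Sox4 (log2 change 1.20), a transcription factor gene, Ccnd2 (1.11), the cyclin D2 gene, Mycn (0.99), Dusp6 (1.11), a phosphatase gene induced by MAP kinase signalling, and the chemokine receptor gene Cxcr4 (0.94). Etv5 and Bcl6b are not in this list, and several of its genes are also expressed in other testis cells. Relative to the median of all genes 7 of the 11 were higher and 0 lower, beside 25.8% and 33.9% of all genes. Egr2, which rose, passed the filter only through the Fn arrays, and of the other 10 genes 8 rose.

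Close relatives of the 10 genes did not always move with them. Of 14 relatives tested 10 rose and 2 fell, beside 44.9% and 24.7% of all genes, and their median log2 change was 0.83. Relative to the median of all genes 4 were higher and 2 lower, beside 25.8% and 33.9% of all genes. Of the 10, 2 (Gfra3 and Sall1) passed the filter only through the Fn arrays. All 3 other ID genes rose, whereas Id4 fell. Id1 had signals of 359.8, 431.6 and 297.9 in Wt and 698.0, 774.0 and 777.0 in Fn testes (log2 change 1.06, adjusted p = 0.000265 from limma). Id2 had 868.5, 873.9 and 763.2 in Wt and 2262, 1976 and 1884 in Fn testes (1.29, adjusted p = 1.13e-05), and Id3 rose by 1.19 (adjusted p = 8.06e-05). The log2 signal of Id4 less the mean of Id1, Id2 and Id3 in the same array was 3.31 ± 0.23 in Wt and 1.55 ± 0.06 in Fn testes (SD, n = 3 each). The groups were apart, with an exact two-sided permutation p = 0.1, the smallest that 3 against 3 arrays allow (also 0.1 adjusted over the 2 such differences tested). This difference was chosen after Id4 was seen to fall and its relatives to rise, so the p carries no weight of its own.

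The GFRA co-receptor genes split likewise. Gfra4, the persephin receptor gene, had signals of 581.4, 619.7 and 707.0 in Wt and 140.3, 194.1 and 195.6 in Fn testes and fell by 1.86 (adjusted p = 1.78e-05 from limma), Gfra2 had a log2 difference of 0.04 (adjusted p = 0.86), and Gfra3, the artemin receptor gene, rose by at least 1.62-fold against the filter level (adjusted p = 0.026, or 0.064 with no filter). The difference in log2 signal between Gfra1 and Gfra4 went from -2.91 ± 0.18 in Wt to -0.17 ± 0.23 in Fn testes (SD, n = 3 each, exact two-sided permutation p = 0.1, the smallest possible). It too was chosen after the values were seen, so that p carries no weight of its own. In the FOXO and SALL families all relatives tested rose, Foxo4 by 1.31 and Foxo3 by 0.54 beside Foxo1, and Sall2 by 1.01 on the log2 scale and Sall1 by at least 1.84-fold against the filter level beside Sall4. Relative to the median of all genes Foxo4 was higher, but Foxo3, Sall1 and Sall2 did not pass (adjusted p = 0.37, 0.12 and 0.098 from limma). With no filter the adjusted p of Sall1 was 0.054. The other relative that fell was the BTB and zinc finger gene Zbtb32, by 0.63 (adjusted p = 0.000442).

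**Figure D4:**
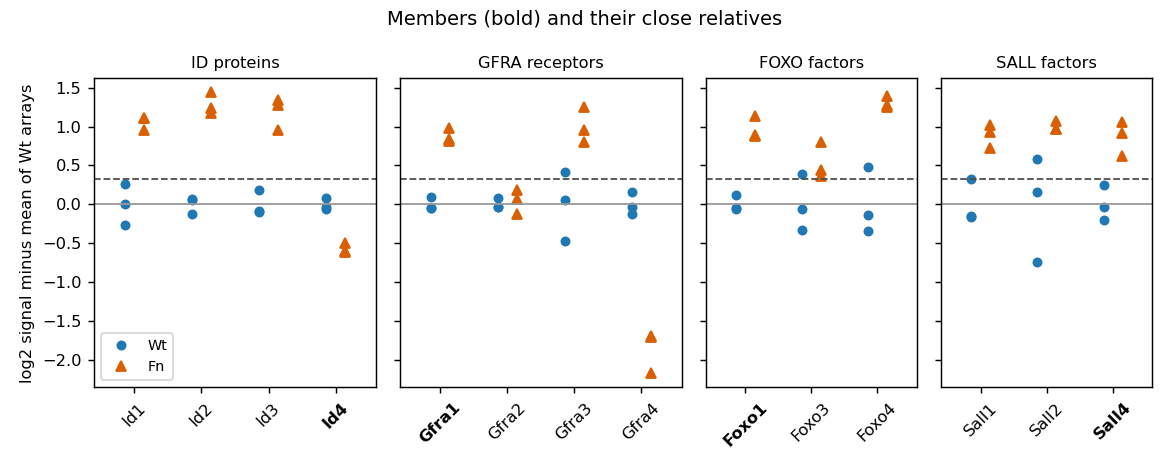
Log2 signal of the brightest probe set on the 3 Wt (circles) and 3 Fn (triangles) arrays, less the mean of the Wt arrays, for Id4, Gfra1, Foxo1 and Sall4 (bold) and their close relatives. Grey marks 0 and dashes mark the all-gene median change, 0.32. Id4 and Gfra4 lie below 0 in every Fn array, Gfra2 on both sides of it, and the other genes above it.

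Transcripts of later germ cells also differed between the genotypes. Of 12 genes of pachytene spermatocytes 11 fell and 0 rose (0 also at an unadjusted p under 0.05 from limma), with summed signals of 99402 to 109640 in Wt and 22308 to 30708 in Fn arrays. Of 11 genes of round and elongating spermatids tested 10 fell and 0 rose (0 also unadjusted), with sums of 18419 to 22402 and 2136 to 2571. Of 11 genes listed for differentiating spermatogonia 10 rose and 1, Dmrtb1, fell, with sums of 14526 to 14998 and 19300 to 20593. Among the 10 was Kitl, whose product is made by Sertoli cells, so neither the count nor the sums are of germ cells alone. Its signals were 2026.2, 2183.5 and 1511.4 in Wt and 4081.5, 3720.6 and 3701.7 in Fn testes. Leydig cell genes (4 of 6 rose, 0 fell, also unadjusted), macrophage genes (5 of 9 rose and 1, Aif1, fell by 1.06) and endothelial genes (4 of 10 rose, 0 fell, also unadjusted) had medians of 0.50, 0.53 and 0.49. Among all genes tested 44.9% rose and 24.7% fell, with a median of 0.32. Relative to that median 0 Leydig, 0 macrophage and 3 endothelial genes were higher, and 7 of the 11 listed for differentiating spermatogonia. The share of all genes higher in this way was 25.8%. The part of these cell type differences in the changes of the 10 genes was not tested. Dazap1 itself had signals of 4323, 4462 and 5046 in Wt and 2538, 2735 and 2820 in Fn testes (log2 change -0.77, adjusted p = 6.7e-05 from limma), by a probe set whose place relative to the altered part of the gene was not analysed here.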

How the data were processed

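Total RNA of 3 Wt and 3 Fn testes was hybridised to 1 Affymetrix array per sample. The deposited values are linear MAS5 signals, that is 1 intensity for each probe set, as the authors computed them, with MAS5 named in the submitters' notes but no version. After trimming 2% at either end, array means ran from 497.7 to 498.0, which shows a common scaling. Detection calls were not analysed here. Probe sets were named from the platform annotation, 34945 of 45037 to 1 gene, 932 to several and 9160 to none, and 34741 matched RefSeq of assembly GRCm38.p6, which gave the coordinates.

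Signals were set on the log2 scale (the 1 value of 0 was set to 0.1) and tested with limma 3.58.1 in R 4.3.3 (lmFit, eBayes with trend), Fn against Wt, with Benjamini-Hochberg adjustment over 27022 probe sets at or above the 40th percentile of mean log2 signal (a signal of 48.0). A change relative to all genes sets the null at the median log2 change of all genes. The brightest probe set stood for a gene. A fold against a group under the filter level divides the brighter group's geometric mean by 48.0 and is written "at least". Genes named are the 10, Dazap1, some of those with the smallest p of a list (at most 8, or 3 for a cell type), and those called against the majority of their list. Differences in log2 signal between genes of 1 array were chosen after the values were seen, and 2 of them were tested; those resting on a Wt signal under the filter level were left out. Other names were chosen after their values were seen. The 10 genes, the lists (pathways, relatives and cell types) and the tests were chosen with earlier results of these data known. Steps were tested on simulated data. The number of arrays limits the precision.

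Samples are numbered 1 to 3 in each genotype. Deviations from the group means correlated at 0.13, 0.12 and 0.16 between same-numbered Wt and Fn arrays and at -0.15 to 0.04 between others. Deviations of 3 arrays sum to 0, so these correlations depend on each other. They do not establish that same-numbered samples were paired, and no source states it. The main test used no block, and the replicate block was run as an alternative. Spearman correlations were 0.951 to 0.961 within and 0.897 to 0.914 between genotypes. Alternatives covered the scaling (quantile, median, 75th percentile), the filter, a pseudocount of 16, the prior variance, array weights, the mean of a gene's probe sets, the replicate block and leaving out each array.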

Additional observations from a re-analysis of the deposited data

How the results depend on the processing

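Counts of the 10 genes called (7 higher, 1 lower) stayed within 1.5 times under every alternative run, at 7 or 8 higher and 1 lower, and those of their probe sets at 12 to 16 higher and 3 or 4 lower. Relative to the median of all genes, probe sets called higher were 12, 9 after quantile normalization, 11 with the replicate block and 6 to 11 without 1 array. With the replicate number as a block, the Etv5 probe sets 1428142_at and 1450082_s_at passed the test (adjusted p = 0.0078 and 0.046 from limma), the Zbtb16 probe set 1427638_at did not (0.052), and relative to the median the Gfra1 probe set 1439015_at did not (0.053). No other call of these probe sets changed under the block. The same 2 Etv5 probe sets also passed without Fn replicate 2 (0.025 and 0.023). Changes near 0 turned sign. Bcl6b had a log2 change of 0.072 with array weights and -0.22 to 0.23 without 1 array. Relative to the median, Gfra1 1450440_at ran from -0.12 to 0.58 without 1 array, Etv5 1428142_at from -0.10 to 0.36 and Etv5 1450082_s_at from -0.079 to 0.35. Of the list counts, GDNF family genes that fell were 2 and not 1 with no filter or with 3 arrays above the filter level, and 1 to 2 without 1 array. RET signalling genes that fell were 1 and not 2 with the mean of a gene's probe sets. Relatives that rose were 6 and not 10 with arrays centred on their median. Undifferentiated spermatogonial genes that rose were 9 to 15 without 1 array. Niche genes that fell were 1 and not 0 after quantile normalization and both centrings, and 0 to 1 without 1 array. Leydig cell genes that rose were 1 with median centring and 2 to 4 without 1 array. Macrophage genes that rose were 3 after quantile normalization, 0 with median centring, 2 with 75th percentile centring, 2 without a trend and 1 to 5 without 1 array, beside 5. The cause of these shifts was not tested. The median change of all genes was 0.32 as deposited, 0.25 after quantile normalization and 0.17 with median centring. Dim probe sets, with Wt signals near 48.0, set the limit for Gdnf, Bcl6b, Ret and Gfra1.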

Other observations

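Other signals that act on spermatogonia were mostly higher in Fn testes. Of 14 such genes tested, 12 rose and 0 fell (1, Egf, fell at an unadjusted p under 0.05 from limma), with a median log2 change of 0.96. Among all genes tested 44.9% rose and 24.7% fell. Relative to the median of all genes 9 of the 14 were higher and 1, Egf, lower, beside 25.8% and 33.9%. The chemokine gene Cxcl12 rose by 1.23 (adjusted p = 5.13e-05 from limma), Kitl, the gene of the KIT ligand made by Sertoli cells, by 1.02, the growth factor gene Igf1 by 1.45 and Bmp4 by 1.40. Csf1, a growth factor gene of stem cell self-renewal, rose by 0.90 and its receptor gene Csf1r by 0.53. Relative to the median of all genes Csf1r had 0.21 and did not pass (adjusted p = 0.29 from limma). Of the 20 measured, 6 were not tested, among them Fgf2, with geometric mean signals of 17.7 in Wt and 37.7 in Fn testes.

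Around LIN28A, which guards cells against let-7 microRNAs, 7 of 12 genes rose and 1 fell, Lin28a included. Among all genes tested 44.9% rose and 24.7% fell. Relative to the median of all genes 5 of the 12 were higher and 1 lower, beside 25.8% and 33.9%. Drosha and Dicer1, the genes of the nucleases that cut microRNA precursors, rose by 0.87 and 0.75, and Tut4, whose product tails let-7 precursors, by 0.52. Relative to the median of all genes Tut4 had 0.19 and did not pass (adjusted p = 0.099 from limma). Igf2bp1, a let-7 target gene, rose by 0.95 (adjusted p = 0.000356 from limma), whereas its relative Igf2bp3 fell by 1.10 (adjusted p = 5.37e-05). Hmga2, another let-7 target gene, had a log2 change of -0.17 and did not pass (adjusted p = 0.74). The microRNAs themselves were not measured on these arrays.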
